A study of Mus musculus with 3 samples.

Results

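*S100g*, *Trpv6*, *Vdr*, *Cyp24a1*, *Atp2b1*, *S100a6*, *S100a10* and *S100a11* are 8 of the 27998 genes measured in single epithelial cells of the mouse small intestine. The set was put together from genes of calcium uptake, vitamin D response and the S100 family, and *S100g* was selected partly on its measured values in these libraries, where it marks a state of adenoma cells. The height of *S100g* in adenoma cells is therefore given as a description. All 8 genes were found in the deposited gene list and are followed over crypt, enterocyte and adenoma cells. The cells were EpCAM-positive epithelial cells sorted from C57BL/6 mice that were 7 to 8 weeks old when they received 2 doses of 2 mg tamoxifen. The WT library was the wild type, taken on day 21. The LApc library came from a mouse with floxed *Apc* and a tamoxifen-inducible Cre driven by the stem cell gene *Lgr5*, and was taken on day 29. The LApcL library carried floxed *Lef1* in addition and was taken on day 21. By the study's methods, *Apc*-deleted mice were taken once they had to be euthanized. Each genotype had 1 library, so no test was run, and genotype cannot be told apart from mouse and library, nor LApc from its later day.

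Uptake of dietary calcium across the enterocyte runs in 3 steps. Calcium enters through the brush border channel *Trpv6*, is carried through the cell by the small calcium-binding protein *S100g* (calbindin-D9k), and leaves through the plasma membrane pump *Atp2b1* on the basal side. Vitamin D, bound to its nuclear receptor *Vdr*, is known to switch on these genes, above all in the duodenum, and to switch on *Cyp24a1*, the enzyme that breaks active vitamin D down again. *S100a6*, *S100a10* and *S100a11* are small calcium-regulated proteins of the S100 family that bind partners such as annexins, and *S100a10* does so without binding calcium itself.

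The genes lie on 6 chromosomes (GRCm38 coordinates, all protein coding). *S100g* is on the minus strand of chromosome X, 162961992 to 162964599. *Trpv6* is on chromosome 6 (41620624 to 41636405, minus), *Vdr* on chromosome 15 (97854425 to 97910630, minus), *Cyp24a1* on chromosome 2 (170482708 to 170497145, minus) and *Atp2b1* on chromosome 10 (98914406 to 99026143, plus). The 3 *S100a* genes share chromosome 3, with *S100a6* at 90612882 to 90624181, *S100a11* at 93520488 to 93526287 and *S100a10* at 93555080 to 93564643, all on the plus strand. *S100a11* and *S100a10* are neighbours 28792 bases apart.

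The start regions of *S100g*, *Trpv6* and *Vdr* are shown because these genes are the buffer, the channel and the receptor of the uptake route and had different patterns over the same cells. Each is 300 bases long, from 250 bases before the start site to 50 after it, 5′ to 3′ on the strand of the gene, from RefSeq on GRCm38.p6. Capitals mark 6-base half-sites of the kind the vitamin D receptor binds (the letters AGGTCA, the letters GGGTCA, the letters AGTTCA or the letters GGTTCA, on either strand). The regions are chrX:162964550-162964849 for *S100g*, chr6:41636356-41636655 for *Trpv6* and chr15:97908247-97908546 for *Vdr*.
S100g: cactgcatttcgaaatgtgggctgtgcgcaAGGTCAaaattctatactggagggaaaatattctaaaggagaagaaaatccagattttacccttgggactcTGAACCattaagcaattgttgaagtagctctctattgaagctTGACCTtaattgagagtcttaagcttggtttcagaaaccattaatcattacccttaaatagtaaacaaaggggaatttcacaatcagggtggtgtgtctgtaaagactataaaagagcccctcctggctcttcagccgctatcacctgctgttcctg
Trpv6: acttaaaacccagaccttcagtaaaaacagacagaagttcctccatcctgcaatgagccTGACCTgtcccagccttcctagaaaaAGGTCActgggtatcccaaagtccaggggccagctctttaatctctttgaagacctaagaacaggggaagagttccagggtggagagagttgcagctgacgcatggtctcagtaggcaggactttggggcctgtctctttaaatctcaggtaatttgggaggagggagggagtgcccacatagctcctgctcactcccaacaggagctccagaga
Vdr: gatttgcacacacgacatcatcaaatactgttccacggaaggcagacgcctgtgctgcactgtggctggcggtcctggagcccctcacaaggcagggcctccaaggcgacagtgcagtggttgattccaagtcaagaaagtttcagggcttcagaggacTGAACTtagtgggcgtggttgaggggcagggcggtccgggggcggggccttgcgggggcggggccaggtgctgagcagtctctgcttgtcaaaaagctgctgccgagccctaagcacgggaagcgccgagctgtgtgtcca

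*S100g* held 3 half-sites (first bases at -220, -149 and -107 from the start site), *Trpv6* held 2 (-191 and -165) and *Vdr* held 1 (-91). A half-site was present in 14358 of 32851 promoters of this length (43.7%), so its presence alone sets no gene apart. Of the 6 members with a RefSeq entry, *S100a6* held 1 half-site at -15 and *S100a11* held 2 that overlap by 1 base, at -243 and -238. *Atp2b1* held none in either of its 2 entries. Half-sites repeated 3 bases apart on 1 strand were found in 13 promoters (0.0396%), none of them of a member. The letters ATCAAAG, a Tcf/Lef motif, occurred in 1225 promoters (3.73%) and in no member, and TTTATG, a caudal-type homeobox motif, in 3893 (11.9%) and in *S100a6* at -234. These matches describe the letters only.

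The WT library held 140181087 UMIs, LApc 79696291 and LApcL 191509615, and 10138, 9601 and 14394 cells were kept, with medians of 9713, 6132 and 10156 UMIs. Libraries shared 214 to 318 cell barcodes. LApc stood apart in that 17.7% of its barcodes exceeded 20% mitochondrial UMIs, against 0.541% in WT and 2.38% in LApcL. The targeted genes were read first. In adenoma-enriched cells *Lef1* was 21.7 CPM (LApc) and 3.63 CPM (LApcL), but in crypt cells it was 0.354, 0.776 and 1.70 CPM in WT, LApc and LApcL. *Apc* was not lower in the deleted libraries (19.3, 22.4 and 23.3 CPM in crypt cells, 49.3 and 37.2 CPM in adenoma-enriched cells), which checks no label because the reads come from the 3′ end. WT, LApc and LApcL therefore name the libraries so labelled.

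Cells were classed from fixed markers without the 8 genes. Crypt-like cells, which hold stem and cycling progenitor cells, numbered 2984 in WT, 2134 in LApc and 1305 in LApcL. Enterocyte-like cells, the absorptive cells, numbered 2236, 3035 and 1490, and ileal enterocyte-like cells, their counterpart at the distal end, 603, 520 and 245. Adenoma-enriched cells are subclusters of the crypt-like cells to which WT gives under 10% of cells after equal weighting, and they numbered 1262 in LApc and 9101 in LApcL. The 7 adenoma check genes (*Sox17*, *Msx1*, *Notum*, *Wif1*, *Nkd1*, *Prox1* and *Wfdc18*) summed to 3119 and 939 CPM there, against 28.2 and 109 CPM in crypt cells of the same libraries and 3.87 CPM in WT crypt cells. The sum was higher in LApc, but *Sox17* (183 and 314 CPM) and *Msx1* (123 and 317 CPM) were higher in LApcL. *Notum* and *Prox1* were also among the markers that named the crypt-like cells. Only 3 WT cells fell in these subclusters, and WT has no value for them. Levels are CPM, the UMIs of a gene relative to all UMIs of a class in a library, with exact 95% Poisson intervals. These intervals hold the error of counting and leave out how mice differ.

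In every library *S100g* was higher in enterocytes than in crypt cells, and its highest levels were in adenoma-enriched cells, which chose the gene. WT crypt cells stood at 111 CPM of *S100g* (107 to 114), those of LApc at 53 CPM (49.4 to 56.7) and those of LApcL at 344 CPM (333.5 to 354). In enterocytes it was 961 CPM (949 to 974), 373 CPM (365 to 382) and 831 CPM (815 to 847) in the same order. Adenoma-enriched cells stood at 4465 CPM (4424 to 4507) in LApc and 4761 CPM (4748 to 4774) in LApcL. There 0.447% and 0.476% of all UMIs were its own, which gave it the ranks 22 and 23 among genes, whereas in enterocytes the ranks were 199, 377 and 195. Crypt levels of LApc and LApcL lay below those of goblet cells of the same library (67.2 and 423 CPM), a secretory class set as background here. They are read as background by that comparison alone, and the source of the signal was not tested. Goblet cells were not shown to lack the gene. Those of LApcL held 15 *S100g* UMIs per *Sox17* UMI, beside 15.2 in adenoma-enriched cells of that library. Only WT crypt cells were above their goblet cells (66.0 CPM).

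**Figure D1:**
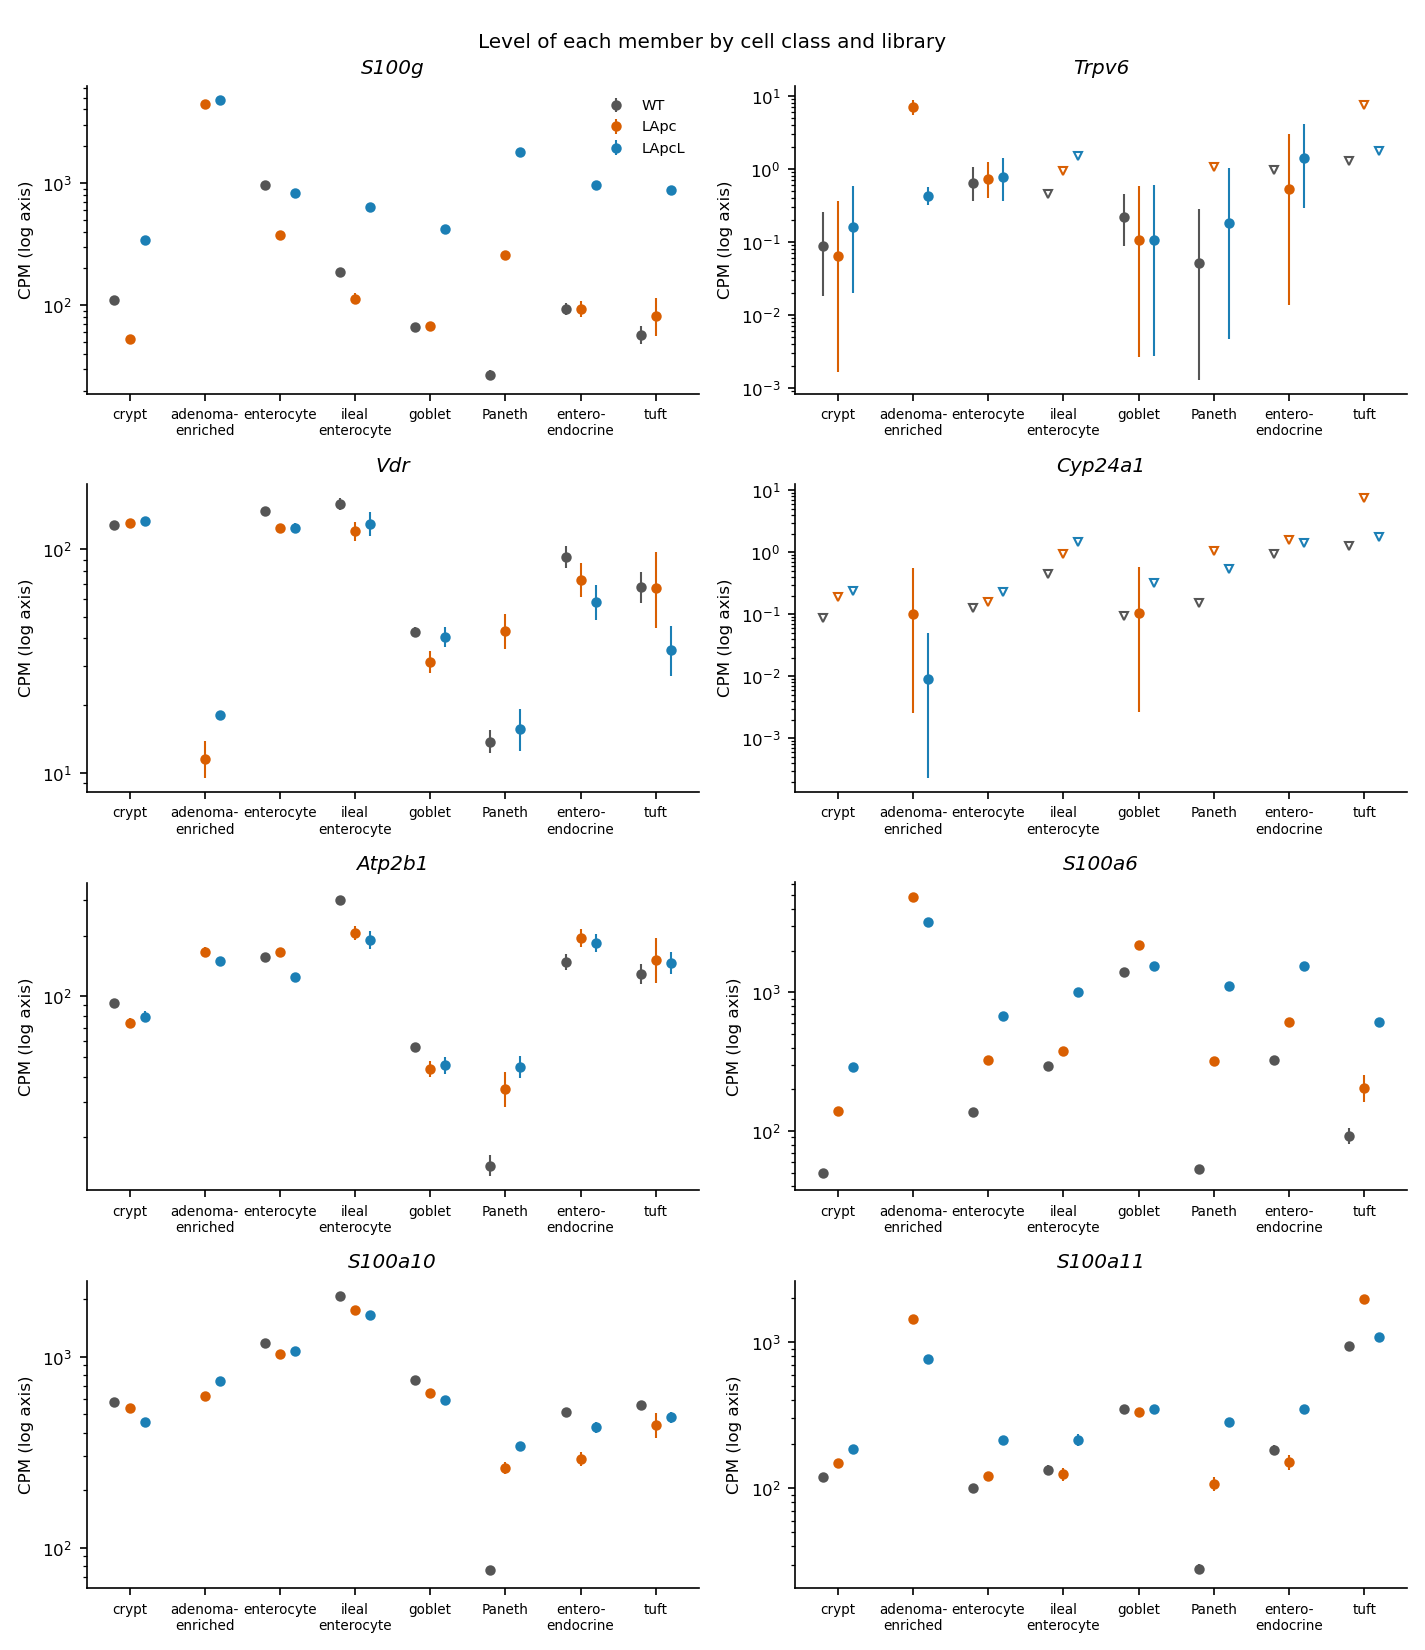
Levels of the 8 genes in 8 cell classes of each library, as CPM on a log axis with exact 95% Poisson intervals, and open triangles where a count of 0 allows up to that level. *S100g* and *S100a6* have their highest points in adenoma-enriched cells, *S100a11* has its highest in tuft and adenoma-enriched cells, and *Vdr* is low in adenoma-enriched and Paneth cells.

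The share of cells with at least 1 *S100g* UMI, after each cell had been thinned to 3000 UMIs, is given beside the levels. Among crypt cells it was 24.2% in WT, 15.8% in LApc and 55.5% in LApcL, and among goblet cells 11.2%, 16.3% and 62.4%. Among enterocytes it was 43.7%, 36.5% and 70.1%, above goblet cells in each library. Adenoma-enriched cells differed between the libraries, at 35.2% in LApc, where the share was no higher than among enterocytes despite the higher CPM, and 82.2% in LApcL. The unthinned shares were 47.4% and 97.7%. Goblet cells had medians of 8963, 5347 and 7173 UMIs, and enterocytes 9564.5, 6219 and 8212.

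*S100g* UMIs were spread unevenly over cells, and among adenoma-enriched cells more so in LApc than in LApcL. Among adenoma-enriched cells of LApc the median cell held 0 *S100g* UMIs per 10000, and the 90th and 95th percentiles were 164 and 305. In LApcL the median was 8.69 and the same percentiles were 141 and 247. The top 10% of cells by *S100g* held 81.5% of the *S100g* UMIs in LApc and 61.5% in LApcL. In WT enterocytes the top 10% held 75.7%, with a median cell at 1.33 and a 90th percentile at 19.6 per 10000. Cells at 30 or more per 10000 made up 16.8% of adenoma-enriched cells in LApc (14.8% to 19.0%) and 28.0% in LApcL (27.1% to 29.0%). They made up 7.47%, 3.29% and 5.70% of enterocytes. Among crypt cells they were 0 of 2984 in WT, which allows a share of up to 0.101%, 0 of 2134 in LApc (up to 0.141%) and 7 of 1305 in LApcL.

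**Figure D2:**
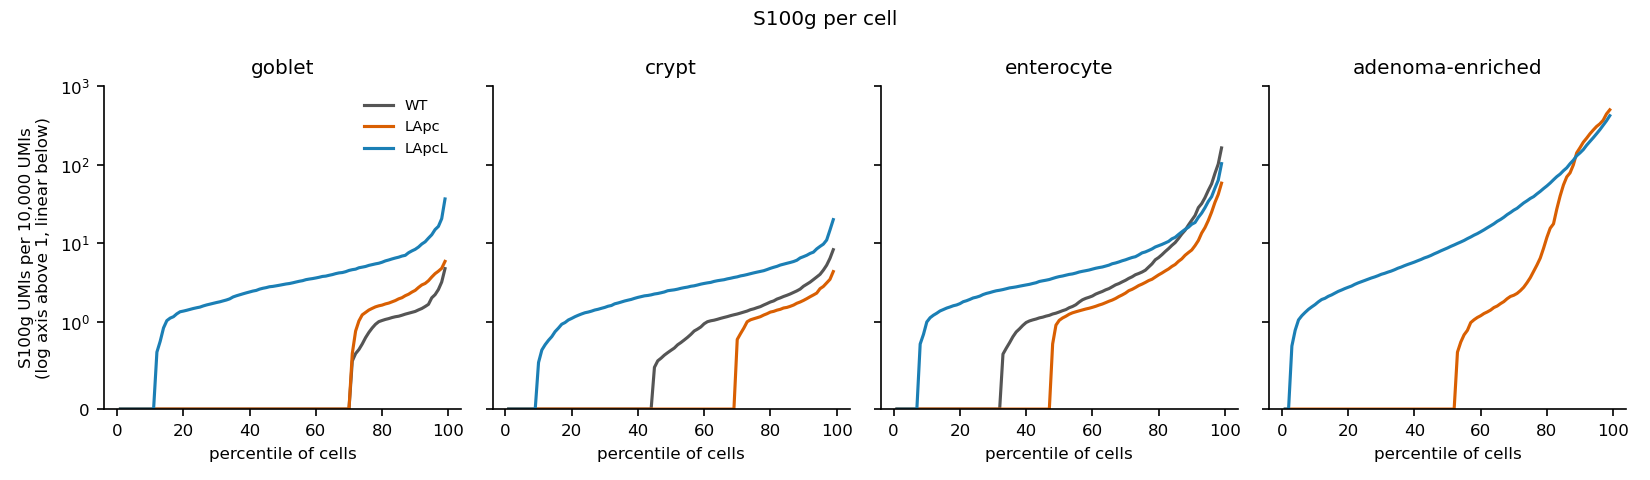
*S100g* UMIs per 10000 UMIs of a cell (log axis above 1, linear below) against the percentile of cells in goblet, crypt, enterocyte and adenoma-enriched cells, with 1 line per library. The adenoma-enriched lines of LApc and LApcL meet near the 90th percentile (164 and 141) and part below it, with the LApc line at 0 up to the median.

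Within enterocytes, *S100g* rose with *Apoa4*, a gene of lipid transport that increases from the villus base to the tip. Enterocytes were split into 3 equal groups by *Apoa4* over all libraries together, called *Apoa4*-low, *Apoa4*-middle and *Apoa4*-high. From the low to the high group *S100g* was 519, 1183 and 1628 CPM in WT, 112, 229 and 729 CPM in LApc, and 488, 1099 and 1428 CPM in LApcL. The high group exceeded the low group 3.13-fold, 6.5-fold and 2.93-fold. Ileal enterocytes held less than the other enterocytes, at 188, 113 and 635 CPM, with log2 ratios of -2.36 (-2.44 to -2.27), -1.72 (-1.88 to -1.57) and -0.39 (-0.47 to -0.30). Enterocytes with a UMI of *Gata4*, *Onecut2* or *Pdx1*, transcription factors of the proximal intestine, held more than those without, a split chosen after the data had been seen. The levels were 1333 against 242 CPM in WT, 505 against 217 CPM in LApc and 952 against 606 CPM in LApcL.

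Over all enterocytes summed, *S100g* was lower in LApc than in WT and close to WT in LApcL. On the log2 scale LApc over WT was -1.36 (-1.40 to -1.33), a level 2.57-fold below WT. LApcL over WT was -0.21 (-0.24 to -0.18), and LApcL over LApc was 1.15. Within the low, middle and high *Apoa4* groups LApc over WT was -2.21, -2.37 and -1.16, and LApcL over WT was -0.09, -0.11 and -0.19. Both enterocyte clusters showed it, with 622, 177 and 495 CPM in WT, LApc and LApcL for cluster 3, led by *Dmbt1* and *Gsdmc4*, and 1521, 653 and 1402 CPM for cluster 4, led by *Apoa4* and *Lct*. The *Apoa4* level itself was higher in enterocytes of LApc (7289 CPM) than in WT (2352 CPM) or LApcL (3665 CPM), and distal genes summed to 3890, 1714 and 579 CPM in WT, LApc and LApcL. Whether the stretch of intestine sampled had a part in these ratios was not tested.

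Adenoma transcripts were also counted in the other cells of LApcL, and in some of these classes *S100g* stood in the same ratio to *Sox17* as in adenoma-enriched cells. *Sox17*, a transcription factor of adenoma cells, was 314 CPM in adenoma-enriched cells of LApcL, 22.9 CPM in crypt cells and 33.5 CPM in enterocytes, and 0 UMIs in WT crypt cells and enterocytes. *S100g* UMIs per *Sox17* UMI were 15.2 in adenoma-enriched cells (15 to 15.3), 15 in crypt cells (13.3 to 17), 15 in goblet cells (13.2 to 17) and 16 in Paneth cells (14.7 to 17.4). Ileal enterocytes stood at 13.8 (11.1 to 17.2). These classes thus held the genes in the same ratio within counting error. Enterocytes held more *S100g* per *Sox17*, at 24.8 (22.5 to 27.3), and enteroendocrine and tuft cells held less, at 8.69 (7.59 to 9.98) and 11.5 (9.62 to 13.9). *Msx1*, another adenoma gene, did not keep the ratio in crypt and goblet cells, where it was 11.7% and 16.4% of its adenoma-enriched level beside 7.22% and 8.89% for *S100g*. Free RNA, doublets and misclassed cells were not told apart. In LApc the ratio was 24.4 in adenoma-enriched cells, 48.2 in crypt cells and 247 in enterocytes. When adenoma RNA was taken off in proportion to *Sox17*, an alternative added after the data had been seen, LApcL over WT in enterocytes became -1.41 for *S100g*, past 2-fold lower, LApcL over LApc became 0.09, and crypt cells of LApcL had no *S100g* left.

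**Figure D3:**
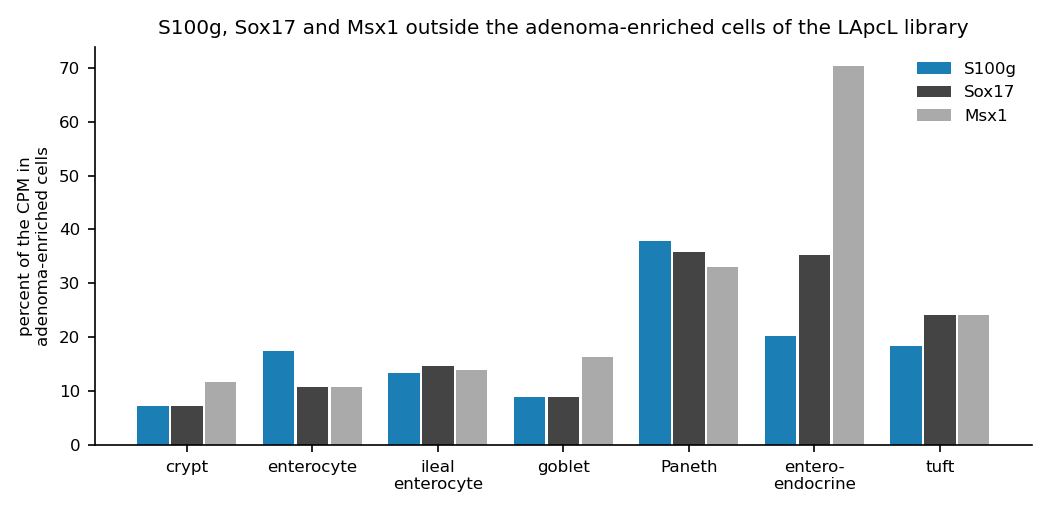
Level of *S100g*, *Sox17* and *Msx1* in each other class of the LApcL library, as a percentage of the level in adenoma-enriched cells. The *S100g* and *Sox17* bars are close in crypt (7.22% and 7.31%), goblet (8.89% and 9.0%), ileal enterocyte (13.3% and 14.7%) and Paneth cells (37.8% and 35.9%), while *S100g* is higher than *Sox17* in enterocytes (17.5% against 10.7%) and lower in enteroendocrine (20.1% against 35.2%) and tuft cells (18.4% against 24.2%), and *Msx1* is above both in crypt (11.7%), goblet (16.4%) and enteroendocrine cells (70.3%).

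*Trpv6*, the entry channel, was counted rarely. Crypt cells held 3, 1 and 2 UMIs in WT, LApc and LApcL, enterocytes 15, 14 and 10 (0.642, 0.731 and 0.766 CPM), and ileal enterocytes 0, 0 and 0 (at most 0.455, 0.946 and 1.49 CPM). Enterocyte levels did not differ detectably between libraries, with log2 ratios of 0.19 (-0.97 to 1.34) for LApc over WT and 0.25 (-1.06 to 1.5) for LApcL over WT. The *Apoa4*-high group held 10 of the enterocyte UMIs in WT, 10 in LApc and 6 in LApcL. Adenoma-enriched cells of LApc held 69 UMIs (6.95 CPM, 5.41 to 8.79) and 2.46% of them had a UMI. Those of LApcL held 47 UMIs in 9101 cells (0.430 CPM, 0.316 to 0.572). Between these libraries the log2 ratio was -4.01 (-4.58 to -3.46), the largest of any member, although the gene is too low for the counts given below.

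*Atp2b1*, the exit pump, varied less. It was 92.7, 73.8 and 79.2 CPM in crypt cells of WT, LApc and LApcL, 156, 166 and 124 CPM in enterocytes, and 299, 205 and 191 CPM in ileal enterocytes. Adenoma-enriched cells stood at 166 CPM (158.5 to 175) in LApc and 150 CPM (148 to 152) in LApcL. Those levels were in the range of enterocytes. Like *S100g* it rose from the low to the high *Apoa4* group, by log2 0.85, 1.66 and 1.42, but unlike *S100g* it was higher in ileal than in other enterocytes, by 0.94 (0.86 to 1.02), 0.31 (0.18 to 0.43) and 0.62 (0.45 to 0.78). LApc and LApcL differed from WT by less than 2-fold in both classes.

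*Vdr*, the receptor, was present along the whole crypt to villus axis and low in adenoma-enriched cells. It was 129 CPM (125 to 132.5), 131 CPM (126 to 137) and 134 CPM (127.5 to 140.4) in crypt cells of WT, LApc and LApcL, with overlapping intervals. Enterocytes stood at 149, 124 and 125 CPM, and ileal enterocytes at 160, 120.5 and 131 CPM. Goblet cells were lower, at 42.6, 31.3 and 40.5 CPM. Within crypt cells, those with an *Lgr5* UMI, the stem cell marker, held more *Vdr* than those without. The levels were 179 against 113 CPM in WT, 184 against 120.4 CPM in LApc and 157 against 127 CPM in LApcL, or log2 0.66 (0.57 to 0.76), 0.61 (0.46 to 0.76) and 0.31 (0.15 to 0.47). In adenoma-enriched cells of LApc the level was 11.5 CPM from 114 UMIs (9.47 to 13.8), and in those of LApcL it was 18.1 CPM from 1979 UMIs (17.3 to 18.9). These values were 11.4-fold and 7.39-fold below crypt cells of the same library, the reverse of *S100g*. Thinned shares of cells with a *Vdr* UMI were 3.18% and 5.55%, against 31.1% and 31.7% of crypt cells.

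*Cyp24a1*, the breakdown enzyme, was not detectable. Crypt cells and enterocytes held 0 UMIs in all 3 libraries, which allows up to 0.0885, 0.194 and 0.242 CPM in crypt cells and 0.128, 0.157 and 0.230 CPM in enterocytes. Adenoma-enriched cells held 1 UMI in LApc and 1 in LApcL.

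*S100a6* was highest in adenoma-enriched cells and was also high in goblet cells. In WT, LApc and LApcL it was 49.7, 139.5 and 288.5 CPM in crypt cells, 138, 325 and 677 CPM in enterocytes and 293, 377 and 1010 CPM in ileal enterocytes. Adenoma-enriched cells held 4864 CPM (4821 to 4908) in LApc and 3232 CPM (3221 to 3242) in LApcL. Goblet cells stood at 1393, 2182 and 1560.5 CPM. *S100a6* was spread over most adenoma-enriched cells, with a UMI in 91.3% (LApc) and 87.6% (LApcL) of them after thinning. By this share *S100g* was in most of these cells in LApcL but not in LApc. It was also in most crypt and goblet cells of LApcL, taken as background above, but not in those of LApc. The part of that background in this contrast was not tested. The *S100a6* medians were 36.4 and 21.9 UMIs per 10000, against 0 and 8.69 for *S100g*.

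In enterocytes and crypt cells *S100a6* was lowest in WT and highest in LApcL as counted. LApc over WT was 1.24 (1.17 to 1.30) in enterocytes and 1.49 (1.40 to 1.58) in crypt cells, and LApcL over WT was 2.29 (2.24 to 2.35) and 2.54 (2.45 to 2.62). The crypt level of LApcL was 8.93% of the adenoma-enriched level beside 7.31% for *Sox17*, and the enterocyte level 20.9% beside 10.7%. After the *Sox17*-scaled removal of adenoma RNA, LApcL over WT in crypt cells was 0.18, and LApcL over LApc turned from 1.05 to -0.98 in crypt cells and went from 1.06 to 0.37 in enterocytes. Within the *Apoa4* groups of enterocytes, LApc over WT went from 1.98 in the low group to 0.33 in the high group, whereas LApcL over WT was 1.98, 2.89 and 2.21.

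*S100a11* followed *S100a6* in adenoma-enriched cells, at 1446 CPM (1423 to 1470) in LApc and 772 CPM (767 to 778) in LApcL. Crypt cells held 119, 150 and 186 CPM in WT, LApc and LApcL, and enterocytes 101, 121 and 214 CPM. LApcL over WT in enterocytes was 1.09 (1.01 to 1.17), just past 2-fold, and 0.55 after the removal of adenoma RNA by *Sox17*. The other side of the threshold was *S100a11* for LApcL over LApc in enterocytes, at 0.82. Tuft cells were higher still, at 939, 1969 and 1080.1 CPM.

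*S100a10*, in contrast, was highest in enterocytes, above all ileal ones. It was 576, 538 and 455 CPM in crypt cells of WT, LApc and LApcL, 1185, 1038 and 1072 CPM in enterocytes and 2075, 1761 and 1645 CPM in ileal enterocytes. Ileal enterocytes exceeded other enterocytes by log2 0.81, 0.76 and 0.62. Crypt cells with an *Lgr5* UMI held less than those without, by log2 -0.66, -0.64 and -0.50, the reverse of *Vdr*. In adenoma-enriched cells it was 624 CPM (609 to 640) in LApc and 747 CPM (742 to 752) in LApcL, between crypt cells and enterocytes, although its chromosomal neighbour *S100a11* was 9.66-fold and 4.14-fold above crypt cells there.

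**Figure D4:**
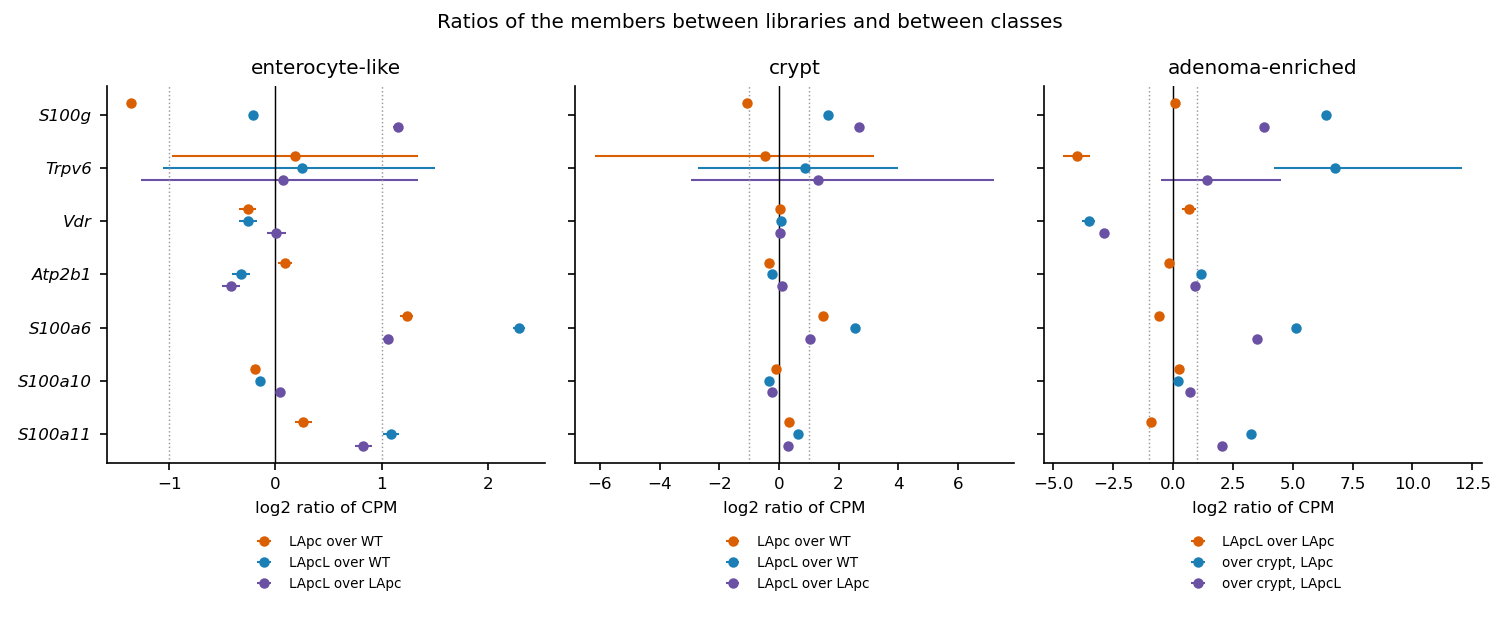
Log2 ratios of CPM for 7 members (without *Cyp24a1*) between libraries in enterocytes, crypt cells and adenoma-enriched cells, and for adenoma-enriched over crypt cells, with exact 95% intervals from counting. Dotted lines mark 2-fold. *S100g*, *S100a6* and *S100a11* pass them upward and *Vdr* downward for adenoma-enriched over crypt cells in both libraries.

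Members at 50 CPM or more in at least 1 of the groups compared were counted as past 2-fold beside all genes filtered in the same way, with no test. *Trpv6* and *Cyp24a1* never reached that level. In enterocytes, 1 of 6 members was higher (*S100a6*) and 1 lower (*S100g*) in LApc than in WT, where 3.5% of 2631 genes passed 2-fold in either direction. For LApcL over WT 2 of 6 were higher (*S100a6* and *S100a11*), with 3.28% of 2618 genes past 2-fold, and for LApcL over LApc 2 of 6 were higher (*S100g* and *S100a6*), with 2.95% of 2641 genes. In crypt cells LApc over WT had 1 higher (*S100a6*) and 1 lower (*S100g*) of 6, with 2.08% of 2597 genes. *S100g* and *S100a6* were higher in LApcL than in WT crypt cells, 2 of 6 beside 2.66% of 2552 genes, and higher than in LApc, 2 of 6 beside 1.45% of 2550 genes. Both of these counts were 0 after the removal of adenoma RNA by *Sox17* or by *Msx1*. *S100g* then had no level left in LApcL crypt cells, nor had *S100a6* by *Msx1*, so those ratios had no value. Only *S100a6* by *Sox17* came within 2-fold with a value (0.18 over WT and -0.98 over LApc). The *S100g* levels in these counts are those read as background above. These comparisons share libraries and are not independent of each other. With ileal enterocytes joined, *S100a6* for LApc over WT (0.95) and *S100a11* for LApcL over WT (0.99) no longer passed 2-fold, and under TMM scaling *S100a6* for LApcL over LApc (0.95) did not. When cells were classed by a marker gate in place of clusters, *S100g* for LApc over WT in crypt cells turned to 1.07. Median log2 ratios of the members lay between -0.18 and 0.44 in these comparisons, beside -0.10 to 0.02 for all genes.

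Between adenoma-enriched cells of LApcL and LApc, 0 of 5 members passed 2-fold, beside 6.61% of 2996 genes. Of those 198 genes 22 were higher and 176 lower, a split that became 47 and 126 under TMM scaling. The log2 ratios were 0.09 for *S100g*, 0.26 for *S100a10*, -0.15 for *Atp2b1*, -0.59 for *S100a6* and -0.91 for *S100a11*, and for *Vdr*, below the level counted, 0.66 (0.38 to 0.94). For adenoma-enriched over crypt cells, the contrast that chose *S100g*, 4 of 6 were higher and 1 (*Vdr*) lower in LApc beside 18.4% of 3085 genes, and 3 higher and 1 lower in LApcL beside 9.02% of 2795 genes. Log2 ratios in LApc were 6.40 for *S100g*, 5.12 for *S100a6*, 3.27 for *S100a11*, 1.17 for *Atp2b1*, 0.21 for *S100a10* and -3.52 for *Vdr*. In LApcL they were 3.79, 3.49, 2.05, 0.92, 0.72 and -2.89 in the same order. The median of all genes was 0.19 and 0.18, so *Atp2b1* sat near the threshold, and it was 0.90 in LApc under TMM scaling. Under the marker gate *S100a6* (0.48) and *S100a11* (0.37) no longer passed 2-fold in LApcL. Over all genes, calls were 402 higher and 167 lower in LApc and 153 and 99 in LApcL, and 300 and 262, and 126 and 126, under TMM.

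Markers of other cell types were read in the same cells because *S100a6* and *S100a11* are also made by stromal and immune cells. In LApc the 6 stromal markers summed to 208 CPM in the adenoma-enriched and 5.56 CPM in the crypt cells. Of the former sum *Vim* gave 193 CPM and *Acta2* 13.6 CPM, with *Col1a1* and *Col3a1* at 0 UMIs. In LApcL they summed to 3.56 and 3.55 CPM, with 2 of the 6 at 0 UMIs, while *S100a6* was 3232 CPM in the adenoma-enriched cells. In LApc adenoma-enriched cells immune markers summed to 49.4 CPM and 2.56 CPM in those of LApcL, with no marker at 0. From crypt to adenoma-enriched cells the tuft marker sums were 3.49 and 79.5 CPM in LApc and 10.1 and 24.6 CPM in LApcL. Those of enteroendocrine markers were 192 and 744 CPM (LApc) and 89.2 and 89.6 CPM (LApcL). The part of such cells in the *S100a6* and *S100a11* levels was not tested.

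Adenoma-enriched cells fell into 4 subclusters made without the 8 genes, which carried *S100g* and the *S100a* genes in different proportions. Subcluster 3, led by *Atp4a* and *Pgc* with little *Mki67* (352 cells of LApc and 2447 of LApcL), held 8644 and 6523 CPM of *S100g* in LApc and LApcL. Subcluster 1, led by *Myl9* and *Sox17* with cycling cells (318 and 3039), held 5347 and 6464 CPM. Subcluster 2, led by *Myl7*, *Lgals3* and *Il1rn* (107 and 2870), held the least, at 595 and 838 CPM. It held cycling cells too, with *Mki67* at 107 CPM beside 150 CPM in subcluster 1, libraries together. Subcluster 5, led by *Wfdc18*, *Clu* and *Lcn2* (485 and 745), was the one in which the libraries parted, with *S100g* at 2269 CPM (LApc) and 8658 CPM (LApcL). The top 10% of its cells held 97.4% and 47.3% of these UMIs.

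*S100a6*, *S100a10* and *S100a11* were lowest in subcluster 3, where *S100g* was high, in both libraries, but low *S100a* genes did not always go with high *S100g*. In LApcL subcluster 5 held more *S100g* than subcluster 3 (log2 0.41) and also more *S100a6* (2.49). *S100a6* was 1482 and 953 CPM there, 5257 and 5405 CPM in subcluster 2 and 8089 and 5342 CPM in subcluster 5. *S100a11* was 661 and 424 CPM in subcluster 3 and 2194 and 1461 CPM in subcluster 5. *S100a10* was highest in subcluster 2 (1157 and 1169 CPM) and 369 and 437 CPM in subcluster 3. *Atp2b1* stayed between 126 and 205 CPM in all of them. *Vdr* ranged from 7.45 to 27.3 CPM, below every crypt subcluster (91.5 to 204 CPM). *Trpv6* was highest in subcluster 3 of LApc (16.8 CPM, 36 UMIs) and was 0.736 CPM (17 UMIs) in that of LApcL.

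**Figure D5:**
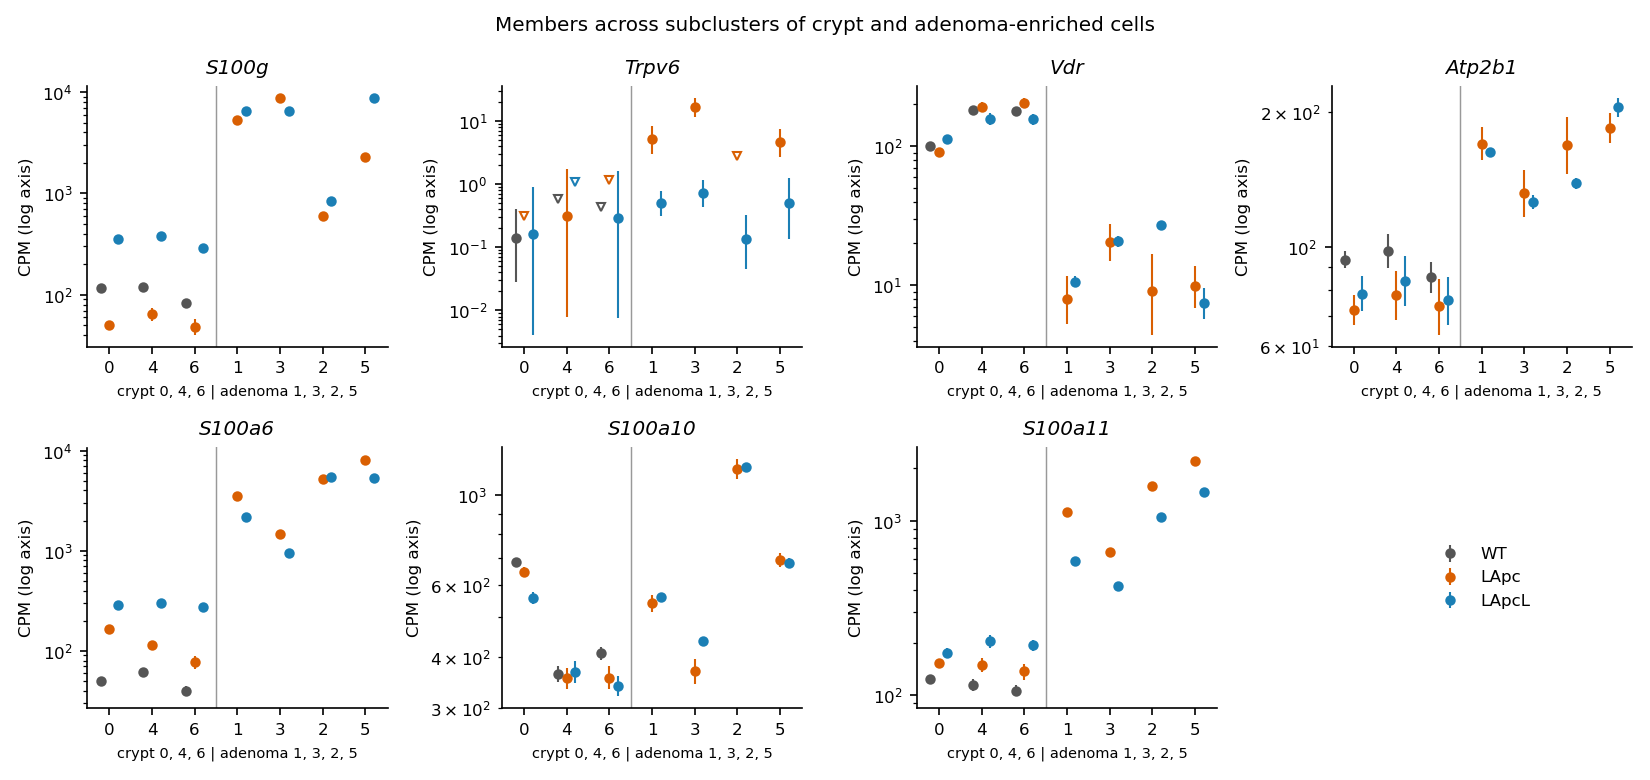
Levels of 7 members (without *Cyp24a1*) in the crypt subclusters (left of the grey line) and the adenoma-enriched subclusters (right of it) of each library, as CPM on a log axis with exact 95% Poisson intervals, and open triangles where a count of 0 allows up to that level. Among adenoma-enriched subclusters *S100g* is lowest in subcluster 2, and the *S100a* genes are lowest in subcluster 3.

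Adenoma-enriched cells were also split by *Wfdc18*, which encodes a secreted protein and is among the adenoma check genes. In LApc, cells without a *Wfdc18* UMI held 9489 CPM of *S100g* and those with one 926 CPM (log2 -3.36), while *S100a6* was 3344 and 5935 CPM (0.83) and *Trpv6* 14.6 and 1.54 CPM. In LApcL the step was smaller, at 5008 and 3207 CPM for *S100g* (-0.64) and 3006 and 4656 CPM for *S100a6* (0.63), and *Trpv6* gave log2 0.37 (-0.94 to 1.49). Cells with a *Wfdc18* UMI numbered 696 of 1262 in LApc and 1183 of 9101 in LApcL.

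The pathway around the members was read from lists of further genes. Shares of all genes past 2-fold in each comparison are those given above. Of 10 genes of vitamin D metabolism and receptor partners only *Ncor1*, a corepressor, reached 50 CPM, and it passed 2-fold in none of the 9 comparisons. Of 7 other genes known to respond to the receptor, *Cyp3a11*, a drug-metabolizing cytochrome, was higher in enterocytes of LApc than in WT (366 against 146 CPM, 1.32) and lower in LApcL than in LApc (91.3 CPM, -2.0). The transporter gene *Abcb1a* was higher in adenoma-enriched cells of LApcL than in those of LApc (51.1 against 24.7 CPM, 1.05) and than in LApcL crypt cells (19.5 CPM, 1.39). Of 18 calcium channels, pumps and exchangers only the store pump gene *Atp2a2* and, in the adenoma-enriched cells of LApc, the store channel gene *Itpr3* reached 50 CPM, and none passed 2-fold.

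Some relatives and partners of the S100 members also passed 2-fold in adenoma-enriched cells. Over crypt cells 18.4% (LApc) and 9.02% (LApcL) of all genes passed it, and between adenoma-enriched cells of the libraries 6.61% did. Of 12 other S100 genes 3 were high enough there, and *S100a14* was above crypt cells in LApc (172 against 10.5 CPM, 4.03) and in LApcL (101 against 13.2 CPM, 2.94). *S100a16* was above crypt cells in LApc (275 against 90.2 CPM, 1.61) and lower in LApcL than in LApc (124 CPM, -1.15). The remaining S100 gene stayed within 2-fold in these comparisons. Of 5 partners, *Anxa1* was 5.76 and 4.22 above crypt cells on the log2 scale (112 and 76.7 CPM) and *Anxa2*, the partner of *S100a10*, 2.02 and 1.63 (794 and 535 CPM). The member *S100a10* itself stayed within 2-fold there. *Cacybp*, which encodes a protein that binds *S100a6*, was lower in enterocytes of LApc than in WT (40.6 against 86.4 CPM, -1.09).

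The pattern of *S100g* over all 23 combinations of class and library was most like those of *Myl9* (Pearson r 0.88), *Rdh10* (0.87), *Pdlim4* (0.85), *Sox17* (0.85) and *Msx1* (0.84), among 4822 genes on the log2(CPM + 10) scale. The points share libraries and, in LApcL, adenoma RNA, so r is a description. Among members r was 0.62 for *S100a6*, 0.53 for *Trpv6*, 0.36 for *S100a11*, 0.29 for *Atp2b1*, 0.25 for *S100a10*, 0.18 for *Cyp24a1* and -0.28 for *Vdr*. *Myl9* was 366 and 384 CPM in the adenoma-enriched cells and 0, 2.51 and 34.6 CPM in enterocytes of WT, LApc and LApcL, so it did not share the enterocyte level of *S100g*.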

How the data were processed

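Values were deposited UMI counts per gene and cell, which the authors made with Cell Ranger 2.1.1 on mm10 and did not normalize. The kit version of each library is not given in the sources used here. In each library the 1% of barcodes with fewest and with most genes and those above 20% mitochondrial UMIs were removed. Scrublet (scanpy 1.11.5) scored doublets. Its automatic threshold marked 4 cells of LApc, so the top scores were removed at the expected rate (9.16%, 10.6% and 13.9%), a choice made after that outcome. Seurat 5.3.0 integrated the libraries on 943 features, members and pathway genes left out, with 20 components and resolution 0.2, and leidenalg 0.10.2 subclustered crypt-like cells at 0.4 after mutual-nearest-neighbour correction (53 neighbours). A class needed 3 markers raised 1.5-fold. The members and lists were chosen with earlier results of these data known. All members are named. Of the vitamin D responsive, S100 and partner lists only genes past 2-fold are named, and others at 50 CPM stayed within 2-fold. The list of intracellular calcium-binding genes is not reported here. The *Apoa4* groups were cut at 2.85 and 39.6 UMIs per 10000. Log2 ratios carry exact conditional binomial intervals and shares Clopper-Pearson ones (95%), and 3 counts stand for a count of 0. Scripts were tested on simulated data. TMM (edgeR 4.0.16), other totals, thinning to 3000 UMIs, stricter filters, other clusterings and regions were alternatives.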

Additional observations from a re-analysis of the deposited data

Results flagged for a closer look

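Members whose library ratios pointed in opposite directions in enterocytes and crypt cells are given first, with the difference between the classes untested because each genotype had 1 library. *Atp2b1* for LApc over WT was 0.0889 in enterocytes and -0.33 in crypt cells (log2). *S100g* for LApcL over WT was -0.21 and 1.63, and the crypt level of LApcL (344 CPM) was below that of its goblet cells (423 CPM). *S100a10* for LApcL over LApc was 0.047 and -0.24.

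Members were also more than 2-fold above WT in classes outside the main comparisons, as log2 ratios of CPM. Only increases at 50 CPM or more were listed, and the share of all genes past 2-fold was not counted in these classes. In LApcL, *S100g* and *Sox17* were 8.89% and 9.0% of their adenoma-enriched levels in goblet cells. They were 13.3% and 14.7% in ileal enterocytes, 37.8% and 35.9% in Paneth, 20.1% and 35.2% in enteroendocrine, and 18.4% and 24.2% in tuft cells. The part of adenoma RNA in the ratios was not tested. In LApcL, *S100g* was 1.76 in ileal enterocytes, 2.68 in goblet, 6.07 in Paneth, 3.35 in enteroendocrine and 3.94 in tuft cells. *S100a6* in LApcL was 1.78 in ileal enterocytes, 4.38 in Paneth, 2.25 in enteroendocrine and 2.72 in tuft cells. Paneth cells of LApcL also had *S100a10* at 2.15 and *S100a11* at 3.33. Those of LApc had *S100g* at 3.26, *S100a6* at 2.57, *S100a10* at 1.77 and *S100a11* at 1.93. Paneth cells held medians of 40994 UMIs in WT, 4633 in LApc and 8704 in LApcL. Adenoma check genes summed to 10.5, 114 and 346 CPM in them, and enterocyte markers to 1099, 8598 and 1737 CPM. Tuft cells of LApc had *S100a6* at 1.14 and *S100a11* at 1.07. These were 83 cells in which immune markers summed to 1501 CPM, against 76.8 CPM in WT, and their part in the ratios was not tested.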

How the results depend on the processing

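No paired analysis was possible because each genotype has 1 library. Of 712 alternative log2 ratios of members that had a value, 228 belonged to the 21 ratios past 2-fold in the main setting. Only those 228 could reverse or lose the call, and 2 reversed and 25 lost it. Among the others 10 gained it. Reversed were *S100g* for LApc over WT in crypt cells when cells were classed by marker gate (1.07) and *S100a6* for LApcL over LApc in crypt cells after the *Sox17* removal (-0.98). In what follows, brackets give the log2 ratio of the member that no longer passed. For LApc over WT in enterocytes 1 member stayed past 2-fold at resolution 0.4, with ileal cells joined or with *Msx1* removal (*S100a6* 0.96, 0.95 and 0.91). For LApcL over WT 1 stayed under stricter doublet removal or with ileal cells (*S100a11* 0.93 and 0.99). After *Sox17* or *Msx1* removal *S100g*, lower at -1.41 and -1.42, took the place of *S100a11* (0.55 and 0.55). For LApcL over LApc in enterocytes 1 stayed under TMM, a 10% mitochondrial limit or stricter doublets (*S100a6* 0.95, 0.88 and 0.83) or in cells with a proximal factor (*S100g* 0.91), *S100a11* at 1.02 took the place of *S100g* at resolution 0.4, and 0 remained past it after *Sox17* or *Msx1* removal. In crypt cells LApc over WT kept 1 when thinned (*S100g* -0.89) and after *Msx1* removal (*S100a6* 0.89), and LApcL adenoma over crypt kept 2 under the marker gate (*S100a6* 0.48 and *S100a11* 0.37). *S100a11* was gained in crypt cells for LApcL over WT, at 2.16 under the gate and 1.10 without mutual-nearest-neighbour correction. Over LApc it was gained at 1.24 under the gate. In enterocytes it was gained for LApcL over LApc, at 1.01 when thinned and 1.04 under the gate. *Atp2b1* was gained for LApcL adenoma over crypt, at 1.03 and 1.10 after *Sox17* and *Msx1* removal. The cause was not tested. Removal of adenoma RNA and the proximal factor split were chosen after seeing the data.

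Removal by *Sox17* or *Msx1* left no *S100g* in LApcL crypt cells, and by *Msx1* no *S100a6*. The ratios that need them have no value and are not counted above. With these ratios missing, 0 members were past 2-fold for LApcL over WT and over LApc in crypt cells under either removal. With 10 CPM in place of 50, and with no filter, genes past 2-fold were, in the order of the report, 290 and 3621, 252 and 3109, 253 and 3951, 161 and 3389, 213 and 3522, 133 and 3011, 746 and 6865, 1822 and 5802, and 931 and 6826. Calls that were higher made up 43.6% for LApcL over LApc in enterocytes (31.4% under TMM, 57.7% without ribosomal, mitochondrial and *S100g* counts) and 35.1% in crypt cells (45.9% and 47.4%). They made up 70.7% for adenoma over crypt in LApc (60.1% without those counts). TMM moved the median of all genes from 0.19 to -0.08 for adenoma over crypt in LApc, and from -0.01 to 0.22 for LApcL over LApc in adenoma cells. Unthinned shares of cells with *S100g* were 55.2%, 30.9% and 90.04% in crypt cells, 67.9%, 52.2% and 92.9% in enterocytes and 47.4% and 97.7% in adenoma-enriched cells. Depth limits *Trpv6* and *Cyp24a1*, and 1 mouse per genotype limits every ratio.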
